A study of Mus musculus with 12 samples.

Results

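The comparison described here sets bone marrow cells carrying NUP98-HOXD13 (ND13) against cells carrying the empty GFP vector (GFP control). Its members were chosen by the array titles alone: the 3 ND13 arrays and the 3 GFP control arrays, 6 of the 12 arrays of the series, with every probe set that is not an Affymetrix control, 22626 of 22690. ND13 is a leukemia fusion gene in which the amino-terminal part of the nucleoporin NUP98 is joined to the homeodomain end of HOXD13. The other 6 arrays hold the engineered fusion NUP98-HOXA10 (NA10) and ND13(N51S), an ND13 whose homeodomain carries a mutation that abolishes DNA binding. They entered the fit to estimate the spread between arrays and are used at the end for direct comparisons with ND13.

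Cells of all groups came from bone marrow of (C57Bl/6Ly-Pep3b×C3H/HeJ) F1 mice older than 12 weeks that had received 5-fluorouracil at 150 mg/kg 4 days earlier, a treatment that spares quiescent stem cells. They were held for 48 hours in interleukin-6, interleukin-3 and stem cell factor, cocultured for 2 days with irradiated GP+E86 cells, a mouse fibroblast line that packages retrovirus, and kept for another 24 hours before GFP+ Sca-1+ Lin- cells were sorted and their RNA was amplified for the MOE430A array. The inserts were driven by the murine stem cell virus vector, so the fusion was overexpressed from random insertions in a mixed population, and what is seen is the state soon after transduction. How many animals were pooled is not given in the sources used here. The study's methods speak of biological triplicates and its results of 3 independent experiments for each condition. Where replicates still came from the same marrow pool, the p-values measure only the spread between these samples.

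HOX proteins are homeodomain transcription factors that act together with TALE partners of the PBX and MEIS families. Genes of the HOXA and HOXB clusters are active in stem and progenitor cells and are switched off as blood cells mature. NUP98 contributes a stretch rich in phenylalanine-glycine repeats that recruits transcriptional coactivators, and fusions of it with HOX genes occur in acute myeloid leukemia and hold progenitors in a self-renewing state. The question was which genes ND13 alters within a short time in cells enriched for stem cells and early progenitors.

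The arrays carried MAS5 signals, one value per probe set, scaled to trimmed means of 500.16 to 500.19. Median signals lay between 128.5 and 159.5. Background, read from 27 bacterial control probe sets at their 95th percentile, ranged from 28.5 to 69.8 and was highest on ND13 replicate 3. The 3′ to 5′ ratio of Gapdh, a measure of RNA integrity, was 1.90 to 2.71 on 11 arrays and 48.9 on ND13(N51S) replicate 2. For GFP control replicate 1, the scanner's experiment record names cells without GFP from an ND13(N51S) culture, which goes against the label. The label was kept, and values below include this array unless stated. Call counts and some of the lists are also given without it. Of the markers of the sorted population, Kit signals were 696 to 878 in ND13 arrays and 792 to 1096 in GFP control arrays, Cd34 signals were 2987 to 3723 in ND13 arrays and 3340 to 4553 in GFP control arrays, and the leukocyte antigen gene Ptprc had 4659 to 5632 in ND13 arrays and 4457 to 5143 in GFP control arrays. The T-cell gene Cd3e was above background on 1 of the 6 arrays. The annotation used here gave no probe set for Ly6a, which encodes Sca-1, so its level is not reported.

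Nup98 and Hoxd13 did not report the fusion. Nup98, the nucleoporin gene, had signals of 425, 389 and 478 in ND13 replicates 1, 2 and 3, against 438, 349 and 524 in GFP control replicates 1, 2 and 3. Hoxd13 was not above background on any of the 6 arrays. Where these probe sets lie relative to the fused part of either gene is not given in the sources used here, so they do not check the labels. Signals below are listed in the order of replicates 1, 2 and 3.

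Of 22626 probe sets, 62 were called higher in ND13 than in the GFP control (0.274%) and 5 were called lower (0.0221%). A call required an adjusted p under 0.05 and a change of at least 1.5-fold, with ND13 and GFP control arrays of the same number treated as pairs. The 62 belonged to 50 genes by probe sets of 1 gene, plus 3 probe sets shared by several genes and 1 without a gene name. Of the 50 genes, 22 had several probe sets, and 19 of these also had probe sets that were not called. All 62 were higher in each of the 3 pairs, and in 58 of them every ND13 array lay above every GFP control array, a separation seen in 6.84% of all probe sets. Their log2 fold changes ran from 0.89 to 6.04 with a median of 1.63, and 22 exceeded 4-fold. All 5 lower probe sets were lower in each pair, 4 of them without overlap of the groups against 5.37% of all probe sets. ND13 replicate 1 was the highest of the ND13 arrays in 51 of the 62. Without GFP control replicate 1 the counts were 10 higher and 0 lower, and the 10 belonged to Rian, Meg3, Dlk1, Ptprf, Olfm1, Ccr1, Tpm4 and probe set 1416325_at. Without ND13 replicate 1 they were 6 and 0. In both of these fits all 67 probe sets kept their direction, a change of at least 1.5-fold and an unadjusted p under 0.05, with adjusted p up to 0.26 without GFP control replicate 1 and up to 0.405 without ND13 replicate 1. With GFP control replicate 1 and ND13(N51S) replicate 2 both left out, a setting added after seeing the data, 89 were higher and 12 lower, 52 and 3 of them shared with the counts above. Without the pairing by number, 19 were called higher and 1 lower. At an unadjusted p under 0.05 and 1.5-fold, 915 probe sets were higher (4.04%) and 443 lower (1.96%), a split of 67.4% higher that fell to 54.2% when each array was centred on its median.

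**Figure D1:**
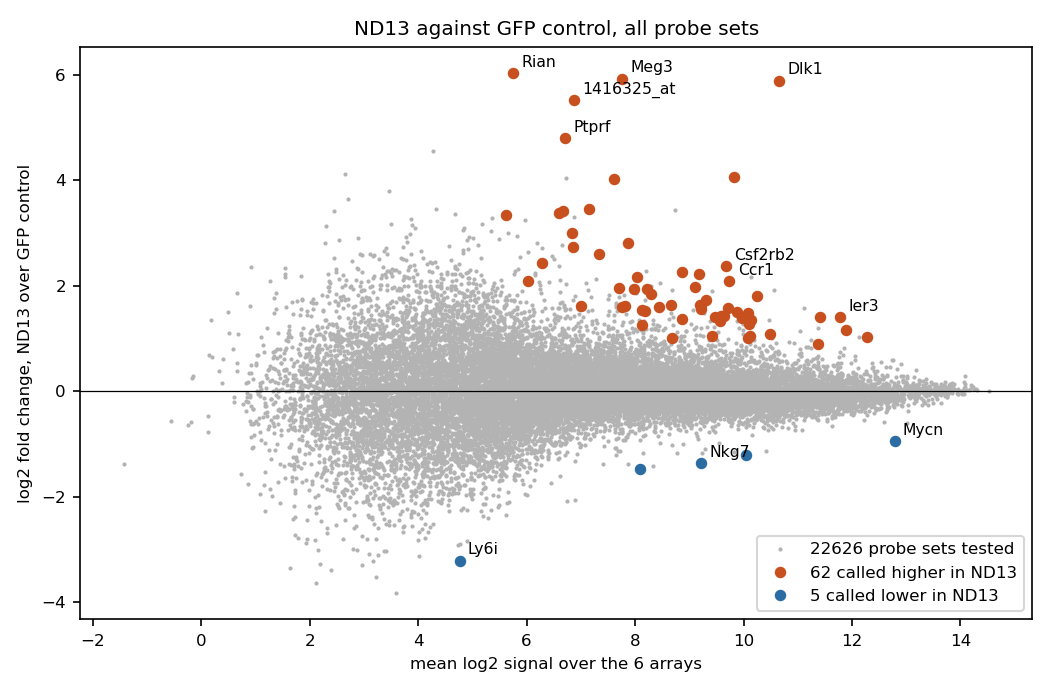
Each point is 1 of 22626 probe sets, with the mean log2 MAS5 signal over the 6 arrays on the horizontal axis and the log2 fold change of ND13 over GFP control on the vertical axis. The 62 probe sets called higher and the 5 called lower are coloured; Rian, Ptprf, Cd28 and Ly6i have a group at or below background, so their heights are fitted values and not measured folds.

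The largest differences lay in the Dlk1-Dio3 imprinted locus on chromosome 12. This locus holds the paternally expressed gene Dlk1, which encodes a transmembrane relative of the Notch ligands found on progenitor cells, and the maternally expressed long noncoding RNAs Meg3 and Rian. On GRCm38.p6 Dlk1 occupies chr12:109452485-109463336, Meg3 chr12:109540996-109571729 and Rian chr12:109603945-109661716. Dlk1 had signals of 13180, 8490 and 16890 in ND13 arrays, against 124, 123 and 588 in GFP control arrays. The lowest ND13 array was far above the highest GFP control array, where replicate 3 stood above the other two. The difference was 59.4-fold (log2 fold change 5.89 ± 0.32, SE, adjusted p = 4.78e-06).

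Meg3 was measured by 5 probe sets, and 3 were called (1439380_x_at, 1452183_a_at and 1426758_s_at). Probe set 1439380_x_at had signals of 4861, 3716 and 2812 in ND13 arrays, against 217, 281 and 175 in GFP control arrays, a log2 fold change of 4.07 ± 0.21 (adjusted p = 4.78e-06). Probe set 1452183_a_at had 2636, 1282 and 1453 in ND13 arrays, against 34.8, 21.1 and 29.6 in GFP control arrays, of which 1 was above background. The groups were well separated in both. Of the Meg3 probe sets without a call, 1436713_s_at had 109, 39.5 and 68.3 in ND13 arrays, against 3.73, 2.86 and 20.5 in GFP control arrays, none of these above background (adjusted p = 0.169). The other, 1436057_at, had 136, 94.5 and 118 in ND13 arrays, against 32.5, 74.0 and 124 in GFP control arrays, and its groups overlapped (adjusted p = 0.718). Rian, a host of small nucleolar RNAs, was called by probe sets 1428055_at and 1427580_a_at. The first had 715, 470 and 245 in ND13 arrays, against 22.2, 3.75 and 3.5 in GFP control arrays, none of them above background, so it was at least 13.4-fold higher in ND13 (adjusted p = 0.001). The second had an adjusted p of 0.0328, and 0.162 without pairing. The third Rian probe set, 1452899_at, had 164, 151 and 200 in ND13 arrays, against 135, 73.3 and 62.0 in GFP control arrays, and was not called (adjusted p = 0.489). Dlk1, Rian probe set 1428055_at and 2 of the 5 Meg3 probe sets were among the 6 probe sets called in each of the 22 alternative limma fits in which they were tested. For Dio3, Mirg and Rtl1 of the same locus the annotation used here gave no probe set. Fibroblasts can express Dlk1, and the packaging line was of that type, although the cells were sorted as GFP+ Sca-1+ Lin- before RNA was taken. Over 20 fibroblast and stromal genes, 19 of them above background on at least 1 array, the summed signal was 1845 to 2593 in ND13 arrays and 2462 to 3410 in GFP control arrays, with 0 of 20 called and a median log2 fold change of -0.30. The collagen gene Col1a2 had 139 to 202 in ND13 arrays and 106 to 255 in GFP control arrays. The part of such cells in the Dlk1 difference was not tested. Of 15 other imprinted growth genes 0 were called, with a median of -0.00 beside 0.01 over all 12393 genes.

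The start of Meg3 is shown because it is the called gene of this locus whose upstream window holds a complete cyclic AMP response element (CRE). The window is the 250 bases before the annotated start in RefSeq on GRCm38.p6, chr12:109540746-109540995 on the plus strand, 5′ to 3′, with the TGACNTCA match in capitals at positions -57 to -50 from the start.
Meg3: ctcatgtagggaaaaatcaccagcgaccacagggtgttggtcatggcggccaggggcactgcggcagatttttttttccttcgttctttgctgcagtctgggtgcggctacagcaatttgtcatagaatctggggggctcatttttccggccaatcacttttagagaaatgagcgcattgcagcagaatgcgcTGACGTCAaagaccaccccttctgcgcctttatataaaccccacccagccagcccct
On either strand TGACNTCA was found in 7.49% of all 32851 RefSeq windows of this length. Counted by gene over any of its windows, it was found in 8.55% of 27025 genes and in 4 of the 33 genes called higher that have a window (Jun, Meg3, Olfm1 and Tpm4). Its open letter was chosen so that the motif holds the TGACATCA of Jun, so Jun had to be among the 4. The exact TGACGTCA was found in 1.77% of genes and in 1 of the 33 (Meg3). The letters CAATAAA, as preferred by HOXD13, were in 4.89% of genes and 0 of 33, and the PBX-HOX motif TGATTNAT was in 3.31% of genes and 1 of 33 (Emp1). These matches describe the letters and were not tested as binding sites. In bulk RNA, here and below, more cells of a type and more RNA per cell cannot be told apart.

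Ptprf, Cd28, Emp1 and P2rx5, which encode membrane proteins, were among the 20 genes named by the size of their increase. Ptprf, which encodes the receptor tyrosine phosphatase LAR, had signals of 726, 600 and 385 in ND13 arrays, against 18.98, 13.5 and 30.3 in GFP control arrays, none above background. It was at least 16.9-fold higher in ND13 (adjusted p = 0.00544), and a second probe set, 1420842_at, was called as well. The third, 1420841_at, was not called, with 104, 60.8 and 74.3 in ND13 arrays, against 29.1, 55.7 and 34.0 in GFP control arrays, a 2.04-fold difference (adjusted p = 0.54). The T-cell costimulatory receptor gene Cd28 had 351, 112 and 99.7 in ND13 arrays, against 11.3, 20.1 and 16.5 in GFP control arrays, none of the GFP control arrays above background, and was at least 4.84-fold higher (adjusted p = 0.0215). The T-cell gene Cd3e had 16.7 to 32.3 in ND13 arrays and 16.95 to 30.7 in GFP control arrays. Emp1, a tetraspan membrane protein gene, had 1638, 826 and 777 in ND13 arrays, against 140, 272 and 252 in GFP control arrays (log2 fold change 2.26 ± 0.36, adjusted p = 0.0339). P2rx5, encoding a receptor channel opened by ATP, had 449, 371 and 408 in ND13 arrays, against 58.8, 131 and 151 in GFP control arrays (1.96 ± 0.32, adjusted p = 0.034, and 0.0752 without pairing). In each of these genes all 3 ND13 arrays lay above all 3 GFP control arrays, which was a condition for being named by size.

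Interleukin-3, present in the culture, signals through a shared beta chain and STAT5. Csf2rb2, the beta chain used only by the mouse interleukin-3 receptor, had signals of 2164, 1667 and 1765 in ND13 arrays, against 292, 442 and 353 in GFP control arrays, a 5.19-fold difference (log2 fold change 2.38 ± 0.33, adjusted p = 0.0184). The levels were tight within each group. Its paralog Csf2rb, the beta chain common to interleukin-3, interleukin-5 and GM-CSF, had 327, 353 and 453 in ND13 arrays, against 161, 173 and 153 in GFP control arrays, and did not pass (adjusted p = 0.215). The near-identical sequence of these paralogs leaves the share of signal from each uncertain. Cish, a STAT5-induced inhibitor of cytokine signaling, had 1889, 1336 and 1456 in ND13 arrays, against 767, 777 and 751 in GFP control arrays (1.01 ± 0.17, adjusted p = 0.034, and 0.0972 without pairing). Among 13 cytokine receptor genes measured, Csf2rb2 was called higher, beside 0.355% of all genes. The unadjusted threshold was passed by 4 upward and 1 downward, beside 4.38% and 1.83% of all genes. Flt3, the receptor of a progenitor growth factor, had 1743, 1235 and 1556 in ND13 arrays, against 329, 983 and 637 in GFP control arrays (adjusted p = 0.239). Csf1r, the macrophage growth factor receptor gene, had 4113, 2648 and 3623 in ND13 arrays, against 3042, 1201 and 1418 in GFP control arrays (adjusted p = 0.0806). The 1 below was Csf3r, the granulocyte growth factor receptor gene, with 309, 497 and 496 in ND13 arrays, against 749, 765 and 698 in GFP control arrays (adjusted p = 0.505). Of 8 STAT5 feedback genes 1 was called higher, beside 0.355% of all genes, with a median log2 fold change of 0.69.

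Among chemokine and adhesion genes, Ccr1, Ccl3, Itgb2 and Lsp1 were called higher. Ccr1, a receptor for CCL3 and related chemokines, had 2102, 1418 and 1829 in ND13 arrays, against 544, 364 and 357 in GFP control arrays. Its log2 fold change was 2.09 ± 0.19 (adjusted p = 0.000628), and this probe set was called in each of the 22 alternative limma fits in which it was tested. A second probe set, 1419610_at, was called at 2.08 on the log2 scale (adjusted p = 0.0476, and 0.511 without pairing). Ccl3 itself had 2400, 1265 and 646 in ND13 arrays, against 540, 186 and 195 in GFP control arrays (2.21 ± 0.38, adjusted p = 0.0404, and 0.197 without pairing). Of 11 chemokine receptor genes, Ccr1 was the 1 called, beside 0.355% of all genes called higher. Itgb2, the common beta subunit of the leukocyte integrins, had 1758, 1436 and 1864 in ND13 arrays, against 638, 636 and 630 in GFP control arrays, a 2.64-fold difference (1.40 ± 0.16, adjusted p = 0.00544). The GFP control arrays were nearly equal. Itgam, the alpha subunit that pairs with it in Mac-1, had 59.4, 43.0 and 104 in ND13 arrays, against 43.3, 27.2 and 26.5 in GFP control arrays, of which 1 was above background (adjusted p = 0.587). Of 12 integrin genes 1 was called, against the same share of all genes. Lsp1, an actin-binding protein gene of leukocytes, had 2932, 1545 and 2565 in ND13 arrays, against 471, 631 and 906 in GFP control arrays (1.81 ± 0.27, adjusted p = 0.0231, and 0.0608 without pairing).

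**Figure D2:**
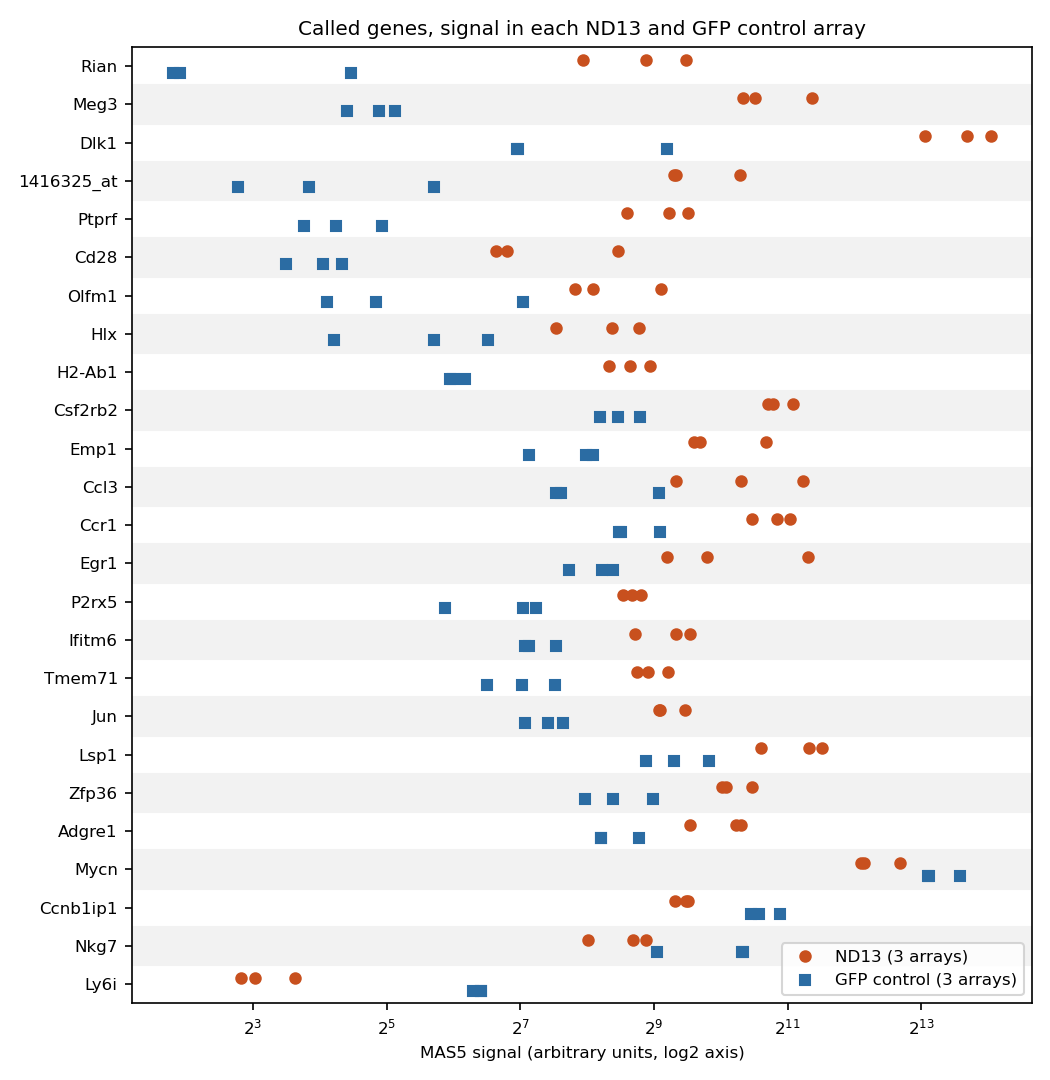
MAS5 signals on a log2 axis for the genes named by the size of their change among those without overlap, with the 3 ND13 arrays as circles in the upper row of each gene and the 3 GFP control arrays as squares in the lower row. The ND13 circles lie to the right of the squares in the upper 21 genes and to the left in Mycn, Ccnb1ip1, Nkg7 and Ly6i.

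Immediate early genes, which cells transcribe within minutes of a growth factor or stress signal, had mostly higher signals in ND13. Of 22 measured, 4 were called higher (Jun, Zfp36, Ier3 and Egr1) and 0 lower, beside 0.355% and 0.0403% of all genes. The unadjusted threshold was passed by 15 upward and 0 downward, beside 4.38% and 1.83% of all genes. The log2 fold change was positive in 21 of 22, with a median of 1.19 beside 0.01 over all genes. Jun, a subunit of the AP-1 factor, had signals of 707, 542 and 542 in ND13 arrays, against 170, 134 and 199 in GFP control arrays (log2 fold change 1.84 ± 0.24, adjusted p = 0.0129). Its other probe set, 1417409_at, was not called (3.31 ± 0.84, adjusted p = 0.213). Zfp36, which encodes an RNA-binding protein that destabilizes cytokine messages, had 1418, 1078 and 1033 in ND13 arrays, against 336, 249 and 506 in GFP control arrays (1.74 ± 0.24, adjusted p = 0.0168). Ier3, a survival gene induced by stress, had 7269, 6400 and 3951 in ND13 arrays, against 2235, 2097 and 2131 in GFP control arrays (1.40 ± 0.20, adjusted p = 0.0195). All ND13 arrays lay above all GFP control arrays in each of these genes, as in 6.84% of all probe sets. For Jun and Zfp36 this was a condition for being named by size. Pair 3 showed the smallest difference in each. Egr1, a zinc finger factor, had 2523, 890 and 586 in ND13 arrays, against 335, 300.0 and 212 in GFP control arrays (1.98 ± 0.36, adjusted p = 0.0476, and 0.246 without pairing). Among those not called, Nr4a1 had 1579, 579 and 300.2 in ND13 arrays, against 102, 134 and 171 in GFP control arrays (adjusted p = 0.103). Fos, the partner of Jun in AP-1, had 4374, 2230 and 2578 in ND13 arrays, against 858, 281 and 1950 in GFP control arrays (adjusted p = 0.143). The exception was Egr3, with 39.6, 92.5 and 42.6 in ND13 arrays, against 118, 40.6 and 102 in GFP control arrays. Without GFP control replicate 1 none of the 22 was called, 13 passed the unadjusted threshold and the median was 1.10, and without ND13 replicate 1 these were 0, 12 and 1.02. The summed signal of the list was 16000.0 to 29360 in ND13 arrays and 7667 to 10400 in GFP control arrays. It also lay above all GFP control arrays with the other constructs, at 12320 to 14210 in NA10 arrays and 13580 to 19900 in ND13(N51S) arrays. The range of the mutant overlapped that of ND13, so the higher sum is not particular to ND13.

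The window before the start of Jun is shown because Jun was called and its promoter holds a CRE-like sequence. It lies at chr4:95052223-95052472 on the minus strand of GRCm38.p6 (RefSeq), with TGACATCA in capitals at -45 to -38.
Jun: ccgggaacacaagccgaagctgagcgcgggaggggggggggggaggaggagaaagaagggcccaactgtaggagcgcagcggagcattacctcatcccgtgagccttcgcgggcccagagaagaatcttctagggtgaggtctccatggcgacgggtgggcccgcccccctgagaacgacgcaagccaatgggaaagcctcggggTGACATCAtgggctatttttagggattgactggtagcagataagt
Windows were found for 18 of the 22 immediate early genes, and TGACNTCA was in 4 of them (Btg2, Dusp1, Jun and Klf6). The AP-1 motif TGANTCA was in 7.82% of all genes, 0 of these 18 and 1 of the 33 called genes (Emp1).

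MHC class II genes, which present peptides on dendritic cells, B cells and macrophages and are controlled together by the coactivator CIITA, also had higher signals in ND13. All 8 measured had a positive log2 fold change with a median of 1.09. The unadjusted threshold was passed upward by 6 of 8, beside 4.38% of all genes. Only H2-Ab1 was called, through 1 of its 3 probe sets. That probe set, 1451721_a_at, had signals of 398, 320 and 493 in ND13 arrays, against 72.2, 61.9 and 63.7 in GFP control arrays (log2 fold change 2.60 ± 0.44, adjusted p = 0.0395, and 0.0745 without pairing). The probe set with the highest mean, 1450648_s_at, had 796, 343 and 799 in ND13 arrays, against 168, 470 and 361 in GFP control arrays, with overlapping groups (adjusted p = 0.583). Cd74, the invariant chain, had 3709, 1604 and 2244 in ND13 arrays, against 644, 414 and 563 in GFP control arrays (adjusted p = 0.128). H2-Aa, an alpha chain, had 4118, 3080 and 4422 in ND13 arrays, against 903, 1695 and 1370 in GFP control arrays (adjusted p = 0.352). H2-Eb1, a beta chain, had 1574, 1615 and 1223 in ND13 arrays, against 577, 822 and 537 in GFP control arrays (adjusted p = 0.36). In these 3 genes all ND13 arrays lay above all GFP control arrays, as in 6.84% of all probe sets. Ciita had 72.9, 48.3 and 88.3 in ND13 arrays, against 45.9, 53.8 and 35.7 in GFP control arrays, and its groups overlapped. Without GFP control replicate 1 the list had 3 genes past the unadjusted threshold and a median of 0.73.

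Windows of H2-Aa (chr17:34287824-34288073, minus strand) and H2-Eb1 (chr17:34305617-34305866, plus strand; both GRCm38.p6, RefSeq) are shown because class II promoters share a conserved module whose Y box reads CTGATTGG. Capitals mark CTGATTGG, at -51 to -44 in H2-Aa and -62 to -55 in H2-Eb1, and in H2-Aa also TGACGTCA at -74 to -67.
H2-Aa: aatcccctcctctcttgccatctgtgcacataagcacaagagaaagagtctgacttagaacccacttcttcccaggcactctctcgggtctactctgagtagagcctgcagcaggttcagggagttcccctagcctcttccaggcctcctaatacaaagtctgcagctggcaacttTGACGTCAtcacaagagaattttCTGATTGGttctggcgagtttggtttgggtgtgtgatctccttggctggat
H2-Eb1: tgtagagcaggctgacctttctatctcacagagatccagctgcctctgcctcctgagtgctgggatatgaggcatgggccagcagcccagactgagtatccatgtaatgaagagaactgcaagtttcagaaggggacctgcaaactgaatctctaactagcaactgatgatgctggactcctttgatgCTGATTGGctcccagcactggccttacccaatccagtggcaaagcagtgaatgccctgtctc
Of the 8 class II genes 5 had a window, and CTGATTGG was found in 3 of them (H2-Aa, H2-Eb1 and H2-Oa), in 4.43% of all genes and in 1 of the 33 genes called higher (H1f2).

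**Figure D3:**
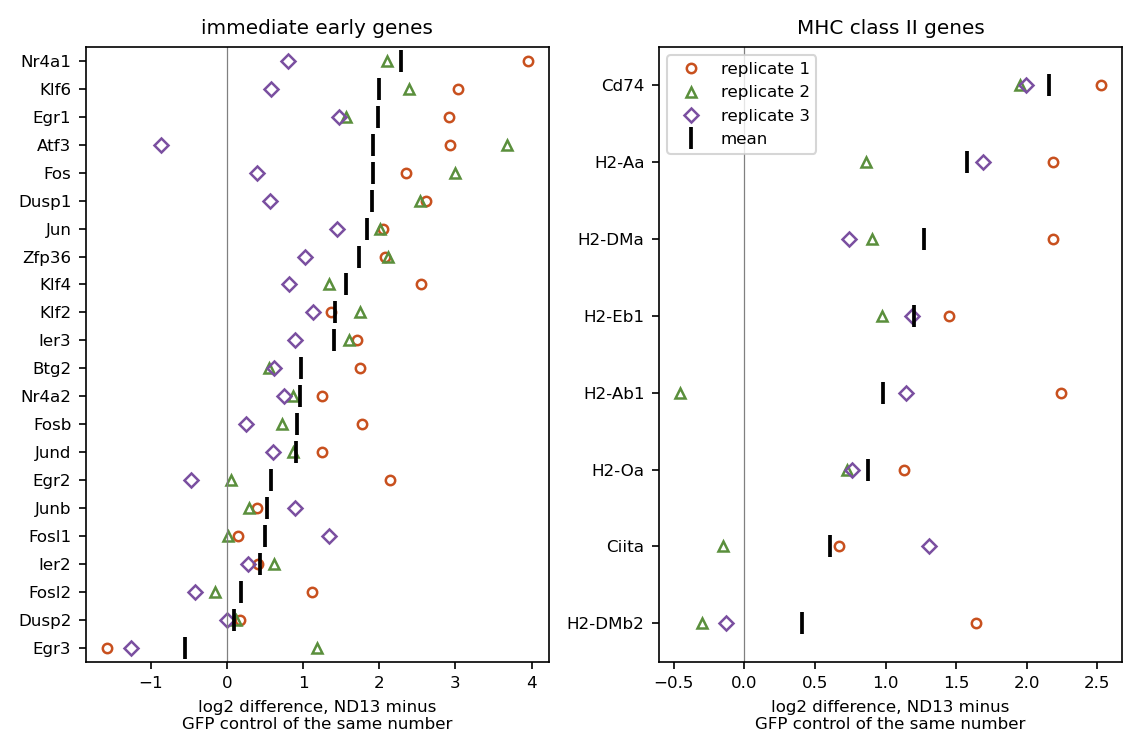
Log2 difference of ND13 minus the GFP control array of the same number for 22 immediate early genes (left) and 8 MHC class II genes (right), each by its probe set with the highest mean; open symbols are the 3 pairs and black bars their mean. The means lie right of 0 in 21 of 22 and 8 of 8 genes, and pair 1 is often the farthest to the right.

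Adgre1, which encodes the macrophage antigen F4/80, had 1204, 747 and 1265 in ND13 arrays, against 437, 295 and 295 in GFP control arrays, a 3.10-fold difference (log2 fold change 1.63 ± 0.29, adjusted p = 0.0427, and 0.132 without pairing). It was the 1 called of 14 macrophage and monocyte markers, beside 0.355% of all genes, and their median was 0.32. Of these 5 passed the unadjusted threshold upward, beside 4.38% of all genes. Without GFP control replicate 1, 0 of the 14 were called, 4 passed the unadjusted threshold, 13 were positive and the median was 0.62. Cd68, a lysosomal glycoprotein gene of macrophages, had 1227, 1205 and 837 in ND13 arrays, against 472, 479 and 438 in GFP control arrays (adjusted p = 0.191). The summed signal of the 14 markers overlapped, with 14490 to 21460 in ND13 arrays and 9313 to 17680 in GFP control arrays, where GFP control replicate 1 was the highest of its group. Further called genes, named after their values were seen and on no list, were Tyrobp and Fcer1g, the signaling adaptors of activating receptors, Lgals3 (galectin-3), Ctsh (cathepsin H), Cfp (properdin), Ms4a6d, Cd33, Tgfbi, Anxa1 and Grn. Their log2 fold changes ran from 0.89 in Grn to 1.54 in Ctsh. Without pairing none of the 10 was called, with adjusted p from 0.0972 in Anxa1 to 0.744 in a probe set of Tgfbi. Tyrobp had 3033, 1850 and 1599 in ND13 arrays, against 1298, 1165 and 624 in GFP control arrays (1.08 ± 0.18, adjusted p = 0.0395), and without pairing its adjusted p was 0.516. Of 16 lysosome genes, which encode the cell's machinery of degradation, 0 were called, 15 were positive and the median was 0.32. Of 14 neutrophil granule proteins 0 were called with a median of 0.03, and Mpo, the azurophil granule peroxidase, had 2205, 6366 and 9030 in ND13 arrays, against 7388, 8188 and 7049 in GFP control arrays.

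Of 15 myeloid transcription factors, Egr1 and Hlx were called higher, beside 0.355% of all genes. The unadjusted threshold was passed upward by 7, beside 4.38% of all genes, and the median was 0.57. Hlx, a homeobox gene outside the HOX clusters, had 436, 185 and 331 in ND13 arrays, against 52.4, 18.6 and 91.6 in GFP control arrays, of which 2 were above background (log2 fold change 2.74 ± 0.43, adjusted p = 0.0284, and 0.0859 without pairing). Spi1, which encodes the myeloid master factor PU.1, had 1054, 784 and 662 in ND13 arrays, against 506, 544 and 623 in GFP control arrays (adjusted p = 0.849). Mitf, a factor of mast cells and osteoclasts, had 407, 281 and 263 in ND13 arrays, against 100.4, 168 and 112 in GFP control arrays (adjusted p = 0.0806). No myeloid factor among the 15 was called lower.

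Markers of other blood lineages gave few calls. Of 3 probe sets assigned jointly to the alpha-globin genes Hba-a1 and Hba-a2, 2 were called. Of these 1428361_x_at had 928, 378 and 691 in ND13 arrays, against 53.7, 156 and 83.4 in GFP control arrays (log2 fold change 2.81 ± 0.42, adjusted p = 0.0231). The other, 1452757_s_at, had an adjusted p of 0.0339, and 0.114 without pairing, and the joint probe set without a call one of 0.473. A probe set of Hba-a1 alone had 92.6, 38.1 and 55.9 in ND13 arrays, against 81.4, 37.65 and 6.05 in GFP control arrays, with overlap (adjusted p = 0.846), and of the 12 erythroid genes measured, counted by this one, 0 were called. Hemgn, a hematopoietic nuclear protein gene, had 454, 700 and 478 in ND13 arrays, against 678, 1212 and 1416 in GFP control arrays (adjusted p = 0.086). Rhag, a red cell membrane protein gene, had 101, 53.7 and 63.9 in ND13 arrays, against 23.3, 5.03 and 12.6 in GFP control arrays, none above background there (adjusted p = 0.383). All 12 megakaryocyte and platelet genes had positive fold changes with a median of 0.49, and 0 were called. Their platelet factor Pf4 had 4685, 5003 and 4149 in ND13 arrays, against 3406, 3429 and 2017 in GFP control arrays (adjusted p = 0.239). Of 17 lymphoid genes and 15 mast cell, basophil and eosinophil genes 0 were called. Ighm, the immunoglobulin mu chain, had 1590, 655 and 733 in ND13 arrays, against 273, 347 and 330 in GFP control arrays (adjusted p = 0.0755). Of 11 endothelial genes 0 were called.

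**Figure D4:**
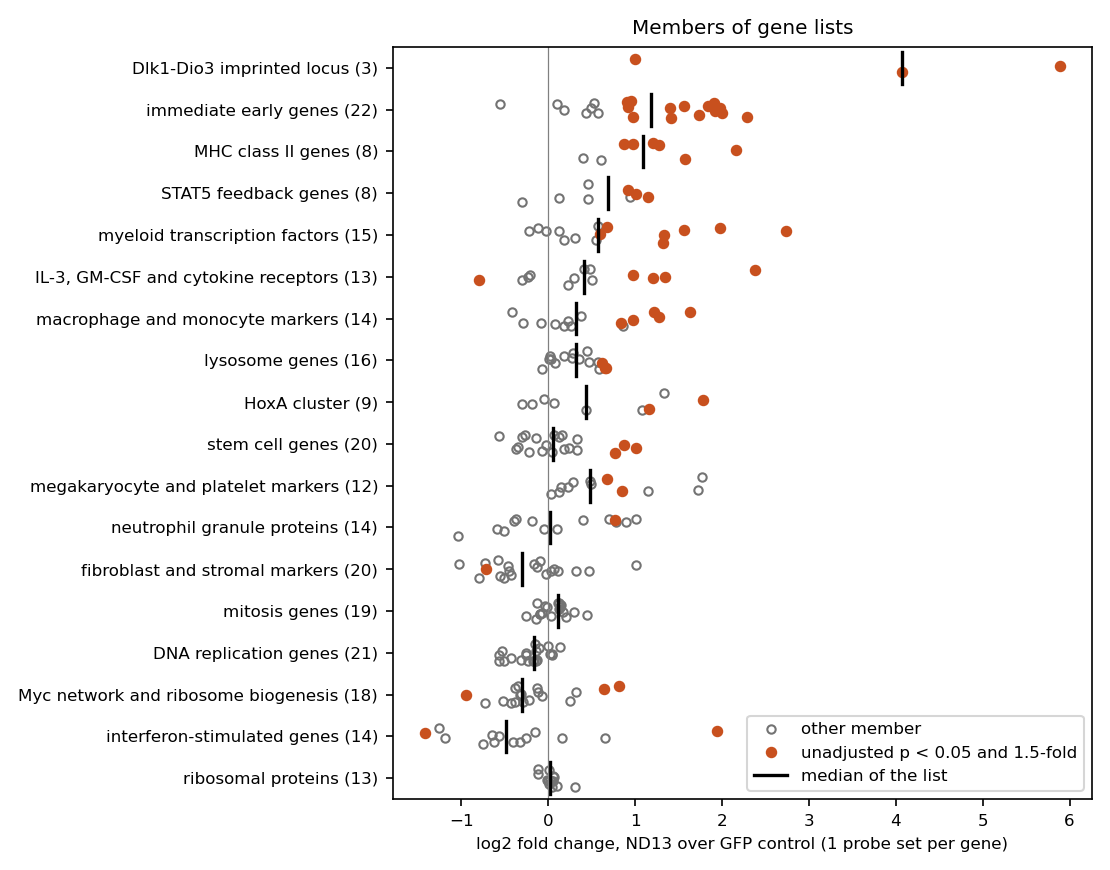
Log2 fold changes of ND13 over GFP control for the members of each gene list, 1 probe set per gene, with members past an unadjusted p of 0.05 and 1.5-fold filled and the list median as a bar. Immediate early genes (median 1.19) and MHC class II genes (1.09) stand to the right of 0. DNA replication genes (-0.16) lie slightly to the left, with 17 of 21 negative, and ribosomal proteins (0.02) stay close to 0.

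HOX genes themselves and their partners gave no call. Of 9 HoxA genes 2 passed the unadjusted threshold upward, beside 4.38% of all genes. Hoxa7 had 292, 382 and 179 in ND13 arrays, against 78.2, 157 and 39.6 in GFP control arrays (log2 fold change 1.79 ± 0.63, adjusted p = 0.404). Hoxa5 had 493, 394 and 362 in ND13 arrays, against 117, 212 and 254 in GFP control arrays (1.16 ± 0.48, adjusted p = 0.53). In both genes all ND13 arrays lay above all GFP control arrays, as in 6.84% of all probe sets. Hoxa9, itself a leukemia gene, had 4965, 4920 and 5563 in ND13 arrays, against 3800, 3653 and 3928 in GFP control arrays (0.44 ± 0.13, adjusted p = 0.286). Without GFP control replicate 1 none of the 9 passed the unadjusted threshold. Of 9 HoxB genes Hoxb4 passed it, with 209, 164 and 108 in ND13 arrays, against 132, 111 and 73.2 in GFP control arrays (adjusted p = 0.517), and the median of that list was -0.45 with 7 of 9 genes above background on any array. Pbx3, a TALE partner, had the lowest adjusted p of these lists, with 552, 365 and 463 in ND13 arrays, against 224, 217 and 218 in GFP control arrays (1.05 ± 0.20, adjusted p = 0.0682). Meis1, the TALE gene that cooperates with HOX fusions in leukemia, had 881, 909 and 680 in ND13 arrays, against 921, 887 and 944 in GFP control arrays (-0.17 ± 0.19).

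Of 20 stem cell genes 0 were called and the median was 0.06. Procr, the endothelial protein C receptor that marks stem cells, had 390, 416 and 239 in ND13 arrays, against 142, 207 and 159 in GFP control arrays (log2 fold change 1.02 ± 0.22, adjusted p = 0.114). Prnp, the prion protein gene, had 1379, 1175 and 1477 in ND13 arrays, against 455, 803 and 1070 in GFP control arrays (0.87 ± 0.24, adjusted p = 0.239). Hlf, a bZIP factor of stem cells, had 1297, 991 and 571 in ND13 arrays, against 374, 678 and 593 in GFP control arrays, which overlap in replicate 3 (adjusted p = 0.593). Of the 12 genes that the study's text singles out, 9 passed the unadjusted threshold upward, beside 4.38% of all genes. Of the 12, 0 were called, and the median was 0.82. Without GFP control replicate 1, 6 of the 12 passed the unadjusted threshold upward and the median was 0.68. That list was chosen by the study on these samples and is not independent evidence of its direction. It also holds Ddx4, an RNA helicase gene of germ cells, which had 114, 121 and 90.8 in ND13 arrays, against 3.96, 20.1 and 21.9 in GFP control arrays, none of them above background (adjusted p = 0.112). Jag2, a Notch ligand gene, had 311, 428 and 323 in ND13 arrays, against 223, 236 and 207 in GFP control arrays (adjusted p = 0.255). Mef2c, a progenitor transcription factor gene, had 2532, 2718 and 2881 in ND13 arrays, against 1360, 1829 and 1958 in GFP control arrays (adjusted p = 0.252).

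The 5 genes called lower in ND13 were Mycn, Ccnb1ip1, Nkg7, Podxl and Ly6i. Mycn, a Myc family transcription factor gene active in immature progenitors, had 4537, 4397 and 6598 in ND13 arrays, against 8754, 8828 and 12180 in GFP control arrays, where the highest ND13 array lay below the lowest GFP control array. Its log2 fold change was -0.95 ± 0.14 (adjusted p = 0.0195, and 0.29 without pairing), whereas 2 further probe sets of Mycn had changes of 0.18 and -0.18 and were not called. Nkg7, a granule membrane protein gene of cytotoxic cells, had 258, 412 and 471 in ND13 arrays, against 527, 1279 and 1285 in GFP control arrays (-1.37 ± 0.19, adjusted p = 0.0184, and 0.478 without pairing). Ccnb1ip1, which encodes a ubiquitin ligase needed for meiotic crossing over, had 713, 637 and 731 in ND13 arrays, against 1887, 1524 and 1404 in GFP control arrays (-1.20 ± 0.21, adjusted p = 0.0427, and 0.0974 without pairing). Ly6i, of the Ly6 surface antigen family that also includes Sca-1, had 12.3, 8.20 and 7.03 in ND13 arrays, none above background, against 85.0, 84.8 and 78.3 in GFP control arrays. It was at least 1.59-fold lower in ND13 (adjusted p = 0.0339). Podxl, a sialomucin gene related to Cd34 that is named after its values were seen, had 87.9, 148 and 336 in ND13 arrays, against 232, 458 and 873 in GFP control arrays, where the groups overlap although each pair differs in the same direction (-1.47 ± 0.26, adjusted p = 0.0476, and 0.802 without pairing). Its other probe set, 1417396_at, was not called (-0.43, adjusted p = 0.939).

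Genes of growth and division gave few calls. Of 18 Myc network and ribosome biogenesis genes Mycn was the 1 called, beside 0.0403% of all genes called lower. In this list 14 were negative and the median was -0.30. Of 21 DNA replication genes and 19 mitosis genes 0 passed even the unadjusted threshold in either direction, although 17 of the 21 were negative (median -0.16). With median centring 3 of the 21 passed it downward and 20 were negative (median -0.23), and with quantile normalisation 2 passed it downward, while no mitosis gene did in either. In 6 of the 21 replication genes all ND13 arrays lay below all GFP control arrays, beside 5.37% of all probe sets. Their summed signal was 56940 to 64100 in ND13 arrays and 64750 to 68660 in GFP control arrays. Cables1, which encodes an adaptor between cyclin-dependent kinases and the ABL kinase, had 954, 1197 and 919 in ND13 arrays, against 195, 441 and 475 in GFP control arrays, and was called higher (1.56 ± 0.25, adjusted p = 0.0339, and 0.109 without pairing). It was the 1 called of 11 CDK inhibitors, D cyclins and related genes, beside 0.355% of all genes called higher. The CDK inhibitor gene Cdkn1a had 2144, 1952 and 2136 in ND13 arrays, against 883, 1225 and 1736 in GFP control arrays (0.75 ± 0.22, adjusted p = 0.277). Of 14 p53 target genes, which include Cdkn1a, 4 passed the unadjusted threshold upward, beside 4.38% of all genes, and 0 were called. Bcl2l11, the proapoptotic BIM gene, and Btg1, an antiproliferative gene, were called and are named after their values were seen: Bcl2l11 had 1845, 1769 and 1317 in ND13 arrays, against 630, 656 and 569 in GFP control arrays (1.40 ± 0.18, adjusted p = 0.012, and 0.0949 without pairing). Of 5 Bcl2l11 probe sets only this one was called, and the others had log2 fold changes from -0.07 to 1.06. Btg1 had an adjusted p of 0.0411, and 0.0661 without pairing, and its other probe set was not called. Of 13 glycolysis, 12 cholesterol synthesis and 13 ribosomal protein genes 0 were called.

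Interferon-stimulated genes split in another way. Ifitm6, a member of the interferon-induced transmembrane family, was called higher with 745, 420 and 643 in ND13 arrays, against 185, 141 and 135 in GFP control arrays (log2 fold change 1.95 ± 0.28, adjusted p = 0.0193). Of the 14 genes of this list 11 were negative with a median of -0.49. GFP control replicate 1 stood apart in them, with a summed signal of 16830 against 5883 and 8780 in GFP control replicates 2 and 3, while the ND13 arrays had 11650, 8374 and 8262. Usp18, an interferon-induced protease gene, had 232, 175 and 189 in ND13 arrays, against 1523, 171 and 567 in GFP control arrays (adjusted p = 0.382). Without GFP control replicate 1 the median of the list was -0.08, with 6 positive and 8 negative.

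Further genes called higher included Olfm1, which encodes a secreted olfactomedin domain protein, with 550.2, 225 and 271 in ND13 arrays, against 131, 17.3 and 28.6 in GFP control arrays, of which 1 was above background (log2 fold change 3.0 ± 0.39, adjusted p = 0.0114, and 0.1 without pairing). Olfm1 probe sets 1426562_a_at (1.82, adjusted p = 0.693) and 1455796_x_at (1.34, adjusted p = 0.282) were not called. Tmem71, a transmembrane protein gene, had 593, 429 and 479 in ND13 arrays, against 130.0, 90.9 and 184 in GFP control arrays (1.94 ± 0.29, adjusted p = 0.0244). Rgs1 and Rgs2, regulators that shorten G protein signals, Crem, a CRE-binding factor gene, Plxnc1, a semaphorin receptor gene, Pdcd1lg2, which encodes the checkpoint ligand PD-L2, and Ccn3, a matricellular protein gene, were also called higher and are named after their values were seen. Crem had 234, 237 and 204 in ND13 arrays, against 75.1, 77.3 and 68.2 in GFP control arrays (1.61 ± 0.26, adjusted p = 0.0329, and 0.0502 without pairing). Without pairing the other 5 were not called either, with adjusted p from 0.0502 in Pdcd1lg2 to 0.75 in Ccn3. Crem probe sets 1418322_at (0.93, adjusted p = 0.341) and 1430598_at (-0.25, adjusted p = 0.981) were not called in the main fit. Probe set 1416325_at, which has no gene in the annotation used here, had 1249, 642 and 628 in ND13 arrays, against 52.5, 6.87 and 14.3 in GFP control arrays, of which 1 was above background (adjusted p = 0.000249).

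ND13 was also set directly against the other constructs, in comparisons that share the ND13 arrays with the one above. Against ND13(N51S) 14 probe sets were higher in ND13 (0.0619%) and 4 lower (0.0177%), and against NA10 7 were higher (0.0309%) and 2 lower (0.00884%). ND13(N51S) replicate 2, whose values are included below, is the array with the Gapdh 3′ to 5′ ratio of 48.9. Without it 31 probe sets were higher and 7 lower against ND13(N51S). Of the 62 probe sets higher than the GFP control, 6 were called higher than ND13(N51S) as well, and 6 higher than NA10. Dlk1 was among both: its 13180, 8490 and 16890 in ND13 arrays stood against 471, 236 and 826 in NA10 arrays and 747, 400.2 and 836 in ND13(N51S) arrays. The log2 difference of ND13 was 4.78 ± 0.32 over NA10 (adjusted p = 5.16e-05) and 4.30 ± 0.32 over ND13(N51S) (adjusted p = 0.000113). The 3 Meg3 probe sets called above, of 5, were also called in both comparisons, 1439380_x_at at 3.41 ± 0.21 over NA10 (adjusted p = 4.29e-05) and 3.21 ± 0.21 over ND13(N51S) (adjusted p = 8.42e-05). Ccr1 was the third gene in both, with 553, 363 and 507 in NA10 arrays and 897, 444 and 849 in ND13(N51S) arrays, and ND13 exceeded NA10 by 1.92 ± 0.19 (adjusted p = 0.00199) and ND13(N51S) by 1.34 ± 0.19 (adjusted p = 0.0401). Rian probe set 1427580_a_at was called higher over NA10 (3.83 ± 0.54, adjusted p = 0.037, and 0.299 without pairing). Without pairing Dlk1 and Meg3 probe sets 1439380_x_at and 1452183_a_at were still called against both constructs. Ccr1 was not (adjusted p = 0.0763 over NA10 and 0.231 over ND13(N51S)), nor was Meg3 probe set 1426758_s_at (0.0592 over NA10 and 0.107 over ND13(N51S)).

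Probe set 1416325_at was high with both active fusions: it had 1249, 642 and 628 in ND13 arrays and 1574, 975 and 2176 in NA10 arrays, against 66.6, 56.2 and 62.4 in ND13(N51S) arrays. ND13 exceeded ND13(N51S) by 3.69 ± 0.45 (adjusted p = 0.0145, and 0.0915 without pairing) and differed from NA10 by -0.91 ± 0.45 (adjusted p = 1.0), without a call. Nkg7, lower than in the GFP control, was also lower than in ND13(N51S) arrays, which had 640.1, 918 and 1311 (log2 difference -1.31 ± 0.19, adjusted p = 0.0401, and 0.443 without pairing). The immediate early gene Jun was not called against either construct by any of its probe sets. Probe set 1448694_at had 228, 262 and 294 in NA10 arrays and 476, 443 and 886 in ND13(N51S) arrays. Its log2 difference of ND13 from the mutant was 0.05 ± 0.24 (adjusted p = 0.951). Probe set 1417409_at had 313, 392 and 407 in ND13 arrays, against 92.2, 70.3 and 513 in ND13(N51S) arrays. Its log2 difference was 1.303 ± 0.843 (adjusted p = 0.582). The study's PCR on unamplified RNA put Jun higher with ND13 than with the mutant, while its array values for both were equal. Mycn had 5042, 3306 and 6155 in NA10 arrays and 3322, 3351 and 4000.0 in ND13(N51S) arrays, and ND13 was not called different from either. Summed over the 8 MHC class II genes, the signal was 8002 to 11950 in ND13 arrays and 3383 to 16050 in ND13(N51S) arrays, of which 2 lay above and 1 below all ND13 arrays.

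**Figure D5:**
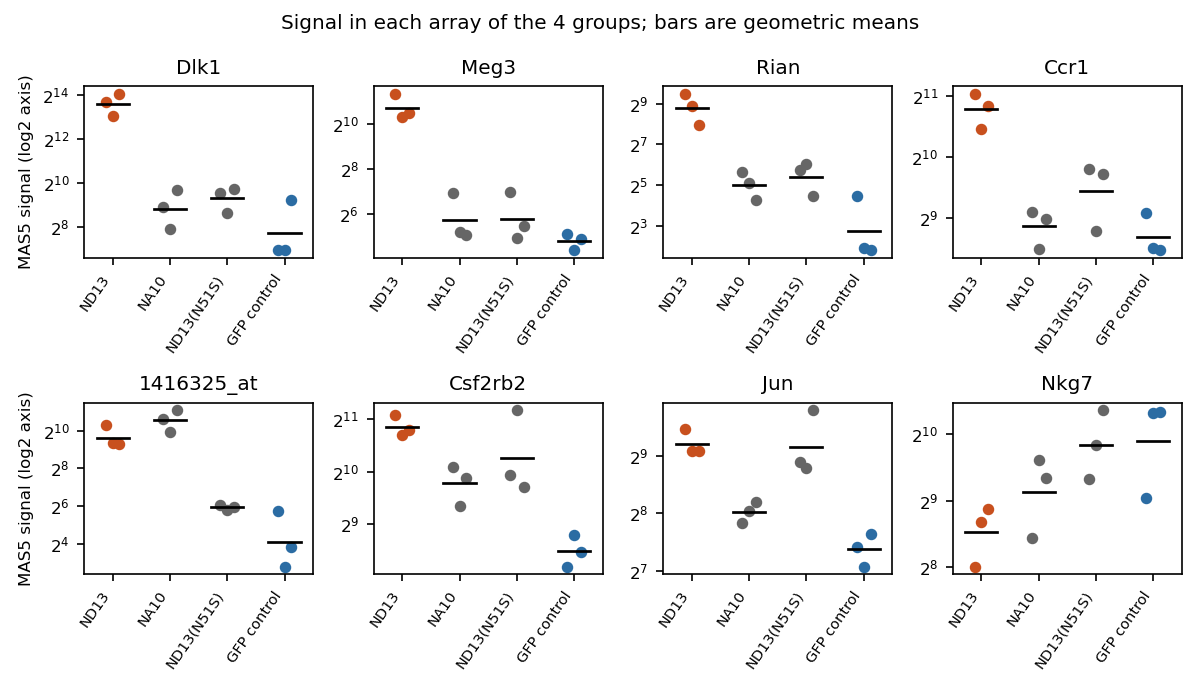
MAS5 signals on a log2 axis for selected called genes, each by its called probe set with the largest change, in ND13, NA10, ND13(N51S) and GFP control arrays, 3 arrays each. In Dlk1, Meg3 and Ccr1 the ND13 arrays lie above the 9 others, while 1416325_at is high in the ND13 and NA10 arrays and Jun overlaps between ND13 and ND13(N51S).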

How the data were processed

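The authors scanned MOE430A arrays and deposited MAS5 signal intensities on a linear scale, 12 arrays with 3 per group. The study's own analysis used GC-RMA values, which were not used here. Here log2 signals were used, floored at 0.01, which no value reached, without further scaling, since the authors had scaled the arrays to a common trimmed mean. Of 22690 probe sets, 64 controls were left out. The fit was limma 3.58.1 in R 4.3.3 (lmFit and eBayes with trend and robust) over all 12 arrays, with the replicate number as a block and Benjamini-Hochberg adjustment over 22626 probe sets. Every adjusted p, log2 fold change and SE comes from this fit. The array number limits precision, and an exact test of a single value in 3 against 3 arrays cannot go below p = 0.1. Deviations from the group means of ND13 and GFP control arrays that share a number had correlations of 0.079 to 0.145 over all probe sets and of 0.366 to 0.544 over those above the median mean, against -0.093 to 0.011 and -0.386 to 0.049 for different numbers. Deviations cancel within a group of 3 arrays, so positive values for shared numbers push those for different numbers down. The contrast is therefore partly arithmetic. The block was kept as the comparison defines pairs by number, and an adjusted p without pairing, alone or as a range, is printed for the genes described as called whose call it ends.

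Background on each array came from 27 bacterial control probe sets, at their 95th percentile. Where a group had no array above it, the fold is a bound ("at least"), with each dim array at the higher of its signal and its background. Of the probe sets, 20380 carried 1 gene, 691 several and 1555 none in the platform annotation, for 12393 genes, and 20351 were matched to RefSeq by gene number. Lists use the probe set with the highest mean of each gene. Named genes were the 20 largest called increases and all called decreases without overlap of the groups, up to 4 members per list, the construct and sex-linked genes, the genes of the study's text, and called probe sets without a gene. Other genes given beside them were chosen after their values were seen. The members and lists were chosen with earlier results of these data known. RefSeq promoter windows (GRCm38.p6, 250 bases before the start) existed for 33 of the 50 genes called higher and 3 of the 5 called lower. The fit was tested on 10 simulated tables with the means and spreads of these probe sets and 200 changed probe sets each. The simulated tables held no replicate effects. It called 2.8% of 1.5-fold changes, 17.4% of 2-fold, 44.6% of 4-fold and 63.4% of 8-fold, with 2.7 wrong calls per table. A gene without a call may therefore still differ.

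Alternatives were no block, the 6 arrays alone, plain eBayes, a filter on dim probe sets, a pseudocount of 32, quantile normalisation, median centring, array weights, 1 probe set per gene, the methods' t-test, a paired one, and each array left out in turn. Plots used Python 3.11.15 and matplotlib 3.10.9.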

Additional observations from a re-analysis of the deposited data

How the results depend on the processing

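The number of probe sets called different in ND13 depended on the fit more than on the scaling. Against the GFP control, 62 were higher and 5 lower. No replicate block gave 19 and 1, the 6 arrays alone 115 and 8, plain eBayes 7 and 2, and array weights 191 and 26. Median centring gave 40 higher, 1 probe set per gene 8 lower, and leaving out GFP control replicate 1 and ND13(N51S) replicate 2 together 12 lower. Leaving out 1 array at a time gave 6 to 204 higher and 0 to 27 lower. The highest counts of both came without ND13(N51S) replicate 2, which kept all 62, and the lowest count of higher calls without ND13 replicate 1. All other counts of these settings stayed within 1.5 times.

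At the study's thresholds, 915 were higher and 443 lower. The filter on dim probe sets gave 513 and 142, and 1 probe set per gene 545 and 231. The unpaired Welch t-test gave 411 and 182, and the paired t-test 415 and 242. Both t-tests gave 0 after Benjamini-Hochberg adjustment, and the other settings stayed within 1.5 times.

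Against ND13(N51S), 14 were higher and 4 lower. No replicate block gave 3 and 0, plain eBayes 3 and 0, the pseudocount 27 and 13, and leaving out both arrays in doubt 47 and 13. The dim filter gave 11 lower, quantile normalisation 9 lower and 1 probe set per gene 6 higher. Leaving out 1 array gave 3 to 91 higher and 0 to 8 lower. Against NA10, 7 were higher and 2 lower. No replicate block gave 4 and 0, plain eBayes 4 and 1, array weights 14 and 9, 1 probe set per gene 3 and 1, and leaving out both arrays in doubt 17 and 7. The dim filter gave 3 higher and the pseudocount 4 lower. Leaving out 1 array gave 4 to 13 higher and 1 to 6 lower. The causes of these changes were not tested, beyond the fewer features or arrays that a setting holds.

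No named gene that was called changed direction. Log2 fold changes that did belonged to 4 genes near 0: Nup98, at -0.01, was -0.15 to 0.16 as single arrays were left out. Hoxd13, at 0.18, was -0.11 to 0.60 and turned negative without GFP control replicate 1, and it was -0.065 without both arrays in doubt. Uty, at 0.06, was -0.20 to 0.27 as single arrays were left out, -0.027 by quantile normalisation, -0.014 by median centring and -0.071 without both arrays in doubt. Pbx2, at -0.08, was -0.25 to 0.055, the highest without ND13 replicate 1. The levels of dim genes are limited by background, which was highest on ND13 replicate 3.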

Other observations

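Malat1, an abundant nuclear noncoding RNA, was not part of any list and is named after its values were seen. Probe set 1418189_s_at had signals of 4078, 1670 and 4282 in ND13 arrays, 238, 74.0 and 530 in ND13(N51S) arrays and 2933, 1877 and 1504 in GFP control arrays. ND13 was higher than ND13(N51S) by 3.87 ± 0.51 on the log2 scale (SE, limma, adjusted p = 0.0401, and 0.0626 without pairing) and differed from the GFP control by 0.61 ± 0.51 (adjusted p = 0.844). In this probe set all 3 ND13(N51S) arrays lay below all ND13 and GFP control arrays. The lowest value was on ND13(N51S) replicate 2, the array with the Gapdh 3′ to 5′ ratio of 48.9. Malat1 had 5 probe sets. Of these 1418188_a_at was also called against ND13(N51S) (3.525 ± 0.539, adjusted p = 0.049, and 0.162 without pairing), and the rest were not.

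Sex-linked genes were measured in all arrays. Xist, transcribed from the inactive X chromosome, had 193, 138 and 141 in ND13 arrays and 188, 176 and 156 in GFP control arrays (log2 fold change -0.15 ± 0.27), and neither it nor the Y-linked genes Uty, Kdm5d and Eif2s3y were called.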
